A study of Rattus norvegicus with 15 samples.

Results

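Femurs of ovariectomised rats that received a Psoralea corylifolia extract (group P) were compared directly with femurs of ovariectomised rats that received a Juglans regia (walnut) extract (group J). The members were chosen by sample title, and they were 3 P libraries and 3 J libraries, 6 of the 15 libraries of the study. All animals were female Sprague-Dawley rats, 8 weeks old, and had a 7-day adaptation before surgery. P rats lost both ovaries, recovered for 6 weeks and were gavaged daily for 8 weeks with 2.4 g/kg of the Psoralea extract. J rats had the same surgery and schedule with 1.6 g/kg of the walnut extract, so the plant and the dose cannot be told apart in this comparison. The other 9 libraries were 3 each of PJ (ovariectomised, both plants combined, 4.0 g/kg per day), OVX (ovariectomised, saline) and Sham (ovaries kept, an equal amount of fat removed). They served only for the estimate of spread and for the placing of P and J values. Nothing in the labels ties a library to its own animal, so the p-values below speak of library spread alone, part of which may be technical.

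Loss of ovarian estrogen in the rat is a standard model of bone loss after menopause: osteoclasts, the cells that resorb bone, outpace osteoblasts, the cells that form it. A femur is a mixture of mineralised bone, marrow that makes blood, marrow fat, vessels, cartilage at the joint ends and any muscle or tendon left on the surface. Psoralea fruit (bu gu zhi) contains coumarins, flavonoids and bakuchiol, some of which act on estrogen receptors in cell assays, and the fruit is classically paired with walnut kernel in preparations for bone. In such bulk tissue, fewer cells of a type and less RNA per cell cannot be told apart, and this holds for every list of genes below.

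Expression was given as FPKM, fragments scaled to gene length and library size, so that levels of different genes are per length. Library totals recovered from the steps of the FPKM values were 36.1 to 51.9 (in units of 1000000 reads) in the 6 libraries. P 2 stood apart from the other P libraries. Its Pearson correlation of log2(FPKM + 1) across genes was 0.851 with P 1 and 0.837 with P 3, while P 1 and P 3 correlated at 0.961 and the J libraries among themselves at 0.928 to 0.965. Genes of the mitochondrial genome took 17.6%, 35.9% and 11.2% of all FPKM in P 1, P 2 and P 3, against 16.4%, 24.5% and 23.5% in J 1, J 2 and J 3. Defining markers of bone, marrow, muscle and cartilage were above 0 in all 6 libraries at levels that differed widely, as given below. For each list with a call, the calls that changed when P 2 was left out are given, and members called only in that fit were named after their values were seen.

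Of 30454 genes in the files, 14339 had a mean of at least 1 FPKM over the 6 libraries and were tested. A linear model across all 15 libraries (limma, Benjamini-Hochberg adjustment over the tested genes, adjusted p below 0.05) called 641 genes higher in P than in J and 451 lower, 4.47% and 3.15% of those tested and 7.62% together. The smallest adjusted p was 0.0363, so every call lay close to the threshold, while 4077 genes had an unadjusted p below 0.05. In 1090 of the 1092 called genes the P and J libraries did not overlap. Over all tested genes 29.5% did not overlap, 16.5% with every P library above every J library and 13.0% with every P library below.

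The number of calls depended on single libraries and on which libraries estimated the spread. Without P 1, without P 3, without J 1 or without J 3 no gene was called by limma (3148 to 3637 genes still had an unadjusted p below 0.05), and without J 2 there were 99 higher and 262 lower. Without P 2 the counts were 531 higher and 336 lower, and 516 of the 1092 genes above were among them. A limma fit to the 6 libraries alone called 0 genes, with 3348 at an unadjusted p below 0.05 and a smallest adjusted p of 0.0557. Under median-ratio scaling the split turned to 532 higher and 852 lower. The counts per gene list below are those of the fit to all 15 libraries, and all of them become 0 wherever the total does.

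**Figure D1:**
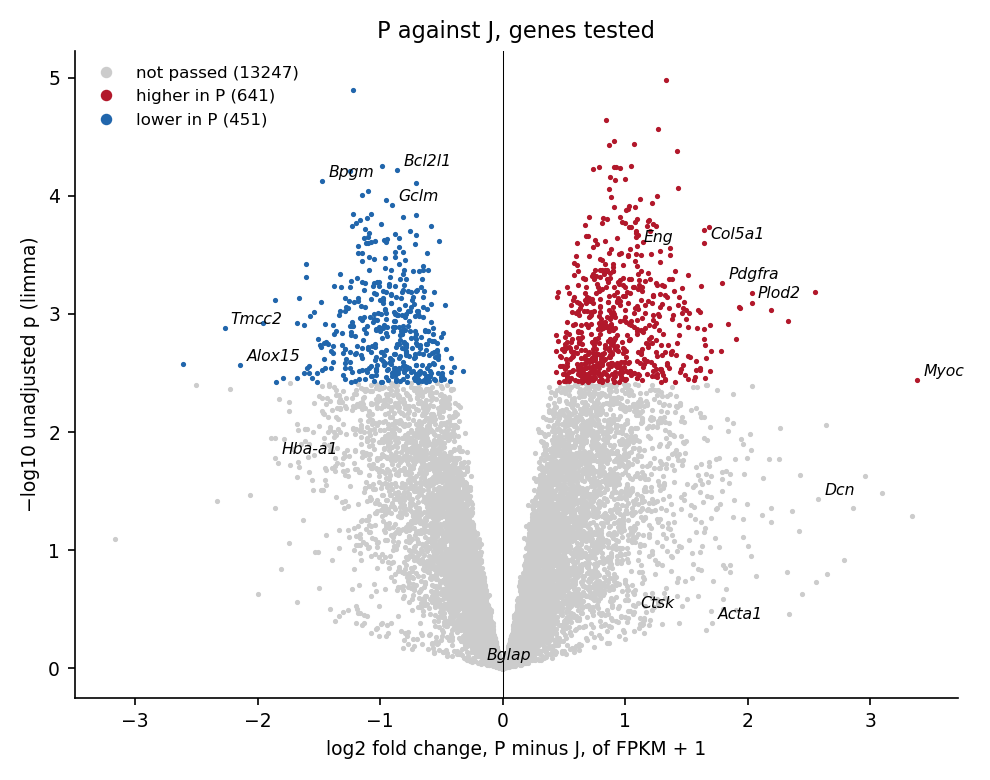
Each point is 1 of the 14339 tested genes, with the log2 fold change of P minus J on the x axis and −log10 of the unadjusted limma p on the y axis; red points are the 641 genes called higher in P and blue points the 451 called lower. Wide changes such as those of Dcn, Acta1 and Hba-a1 lie in grey, below many smaller changes such as those of Bcl2l1 and Gclm.

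Red cell genes were lower in P femurs. All 29 tested members of the erythroid list had a negative log2 fold change (median −1.35, against 0.03 over all tested genes). In 28 of them every P library lay below every J library (13.0% of all tested genes did). The test was passed by 4 (13.8%, against 3.15% called lower over all tested genes). The mean log2(FPKM + 1) of the list was 5.21, 6.21 and 5.36 in P 1, P 2 and P 3, against 6.86, 7.06 and 6.89 in J 1, J 2 and J 3. Of the 3 P libraries, P 2 was thus nearest to J. With P 2 left out the median was −1.67 and 9 members passed, among them the same 4.

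Bpgm, which makes the 2,3-bisphosphoglycerate that loosens the hold of haemoglobin on oxygen, had 56.9, 88.9 and 61.9 FPKM in P, against 179, 215 and 179.9 FPKM in J. Its log2 fold change, P minus J on the log2(FPKM + 1) scale, was −1.47 ± 0.26 (SE; limma, adjusted p = 0.0363). All later values after ± are SEs, and a signed number in brackets after a gene is its log2 fold change. Fech, the last enzyme of haem synthesis, had 27.8, 69.1 and 33.1 FPKM in P, against 98.9, 129 and 120.1 FPKM in J (log2 fold change −1.5 ± 0.38, limma, adjusted p = 0.041). Both genes were lower in every P library than in any J library, and P 2 was the highest of the P libraries for each. The other called members were Nfe2, a transcription factor of globin and platelet genes (−1.43), and Xpo7, a nuclear exporter used as red cells mature (−1.15).

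The most abundant red cell genes had log2 fold changes of similar size and did not pass. Hba-a1, an alpha globin gene with close copies that could share its reads, had 2503, 7340.4 and 3921 FPKM in P, against 14596, 13506 and 17356 FPKM in J, with a log2 fold change of −1.86 ± 0.67 (limma, adjusted p = 0.0966). Slc4a1, the band 3 anion exchanger of the red cell membrane, had 83.5, 201 and 101 FPKM in P, against 332, 459 and 309 FPKM in J (−1.59 ± 0.57, adjusted p = 0.0959, limma). Gata1, the master transcription factor of the lineage, had −1.34 ± 0.44 (limma, adjusted p = 0.0731). In these 3 genes too the groups did not overlap.

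Among the 15 lowest log2 fold changes of called genes without overlap, Icam4, the Landsteiner-Wiener blood group antigen, had −1.79, while some uncalled genes such as Hba-a1 lay lower. Tmcc2, a membrane protein, had 23.7, 85.7 and 26.3 FPKM in P, against 179, 237 and 151 FPKM in J, a log2 fold change of −2.27 ± 0.55 (limma, adjusted p = 0.0383). P 2 again lay between the other P libraries and J.

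Platelet genes had lower levels in most P libraries, without a single call. The 18 tested members of the megakaryocyte and platelet list had a median of −0.98, and 17 were negative. In 12 of them every P library lay below every J library (13.0% of all tested genes did). Pf4, platelet factor 4, had 159, 326 and 133 FPKM in P, against 354, 489 and 494 FPKM in J (log2 fold change −1.21 ± 0.43, limma, adjusted p = 0.0909). Treml1, a receptor of platelet granules, had −1.47 ± 0.45 (limma, adjusted p = 0.0617). Leaving out P 2 gave a median of −1.11, and 3 members passed.

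Most neutrophil genes had negative fold changes, and the few calls depended on P 2. Of 25 tested members of the neutrophil and granule list 24 were negative (median −1.37). The test was passed by 4 (16.0%, against 3.15% called lower over all tested genes). In 12 every P library lay below every J library (13.0% of all tested genes did). Mmp8, the collagenase stored in neutrophil granules, had 109, 77.2 and 175 FPKM in P, against 316, 255 and 382 FPKM in J, with a log2 fold change of −1.45 ± 0.35 (limma, adjusted p = 0.0383). Csf3r, the receptor of the growth factor G-CSF, had 15.2, 11.8 and 20.4 FPKM in P, against 40.7, 31.8 and 42.4 FPKM in J (−1.25 ± 0.27, limma, adjusted p = 0.0363). Here P 2 was the lowest library of its group, unlike in the red cell genes.

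Retnlg, a resistin-like protein of rodent neutrophils (−1.40), and Cxcr2, the receptor that guides neutrophils out of the marrow (−1.25), also passed. Without P 2 the median of the list was −1.05 and no member passed. Among the same 15 called genes, Alox15, a lipoxygenase of eosinophils and macrophages, had 12.7, 52.1 and 9.93 FPKM in P, against 72.1, 89.6 and 102 FPKM in J, with a log2 fold change of −2.14 ± 0.58 (limma, adjusted p = 0.047). Pglyrp1, a granule protein that binds peptidoglycan, had −1.60, and Hp, haptoglobin, which binds free haemoglobin, had −1.62. Ceacam1 (−1.85), an adhesion molecule, and Orm1 (−1.67), an acute-phase carrier protein, were lower too. Also among these 15 were RGD1559662 (−2.61), Ceacam4 (−1.68), LOC120100405 (−1.66) and Degs2 (−1.61). Reads of the Ceacam genes could have been shared among members of that family.

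Of the mast cell, basophil and eosinophil list only Ms4a2, the beta chain of the high-affinity IgE receptor, passed. It had 13.1, 6.25 and 10.1 FPKM in P, against 35.7, 17.4 and 48.5 FPKM in J (log2 fold change −1.62 ± 0.45, limma, adjusted p = 0.0477). The mast cell protease gene Mcpt9, not on that list, had 72.3, 36.9 and 26.6 FPKM in P, against 147, 221 and 136 FPKM in J (−1.96 ± 0.47, limma, adjusted p = 0.0383). The list of 14 genes had a median of −0.61 with P 2 and −0.05 without it. Its 1 call was 7.14% of the list, against 3.15% called lower over all tested genes. Leaving out P 2 ended the call of Ms4a2 (−1.36, limma, adjusted p = 0.0975), and Tpsab1, a mast cell tryptase, was then higher in P (1.79, limma, adjusted p = 0.0389).

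B cell genes had negative fold changes that P 2 widened. All 25 members were negative (median −0.92), but none passed. In 3 every P library lay below every J library, near the share over all tested genes (13.0%). The mean log2(FPKM + 1) of the list was 5.15, 3.47 and 5.22 in P 1, P 2 and P 3, against 5.79, 5.74 and 5.10 in J 1, J 2 and J 3. P 2 was the lowest of the 6 libraries, P 3 lay above J 3, and without P 2 the median of the list was −0.34. T and NK cell genes (20 tested, median −0.09) and MHC class II genes (13 tested, median −0.17) had no call.

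Most members of the monocyte and macrophage list had positive fold changes, and its calls turned with P 2. Of 20 tested genes 15 were positive (median 0.42, and 0.81 without P 2). The 1 call was a lower one (5.0%, against 3.15% called lower over all tested genes). Lyz2, the lysozyme of macrophages and granulocytes, had 719.9, 559 and 1189 FPKM in P, against 2190.0, 1714 and 2232 FPKM in J, and its log2 fold change was −1.38 ± 0.30 (limma, adjusted p = 0.0363). Without P 2 that call was lost (−1.13, limma, adjusted p = 0.0507), and the list had 2 higher calls and 0 lower, among them Mrc1 (1.13), the mannose receptor of macrophages. Trem2, a receptor of tissue macrophages and osteoclast precursors, had 1.10 ± 0.40 (limma, adjusted p = 0.0945).

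**Figure D2:**
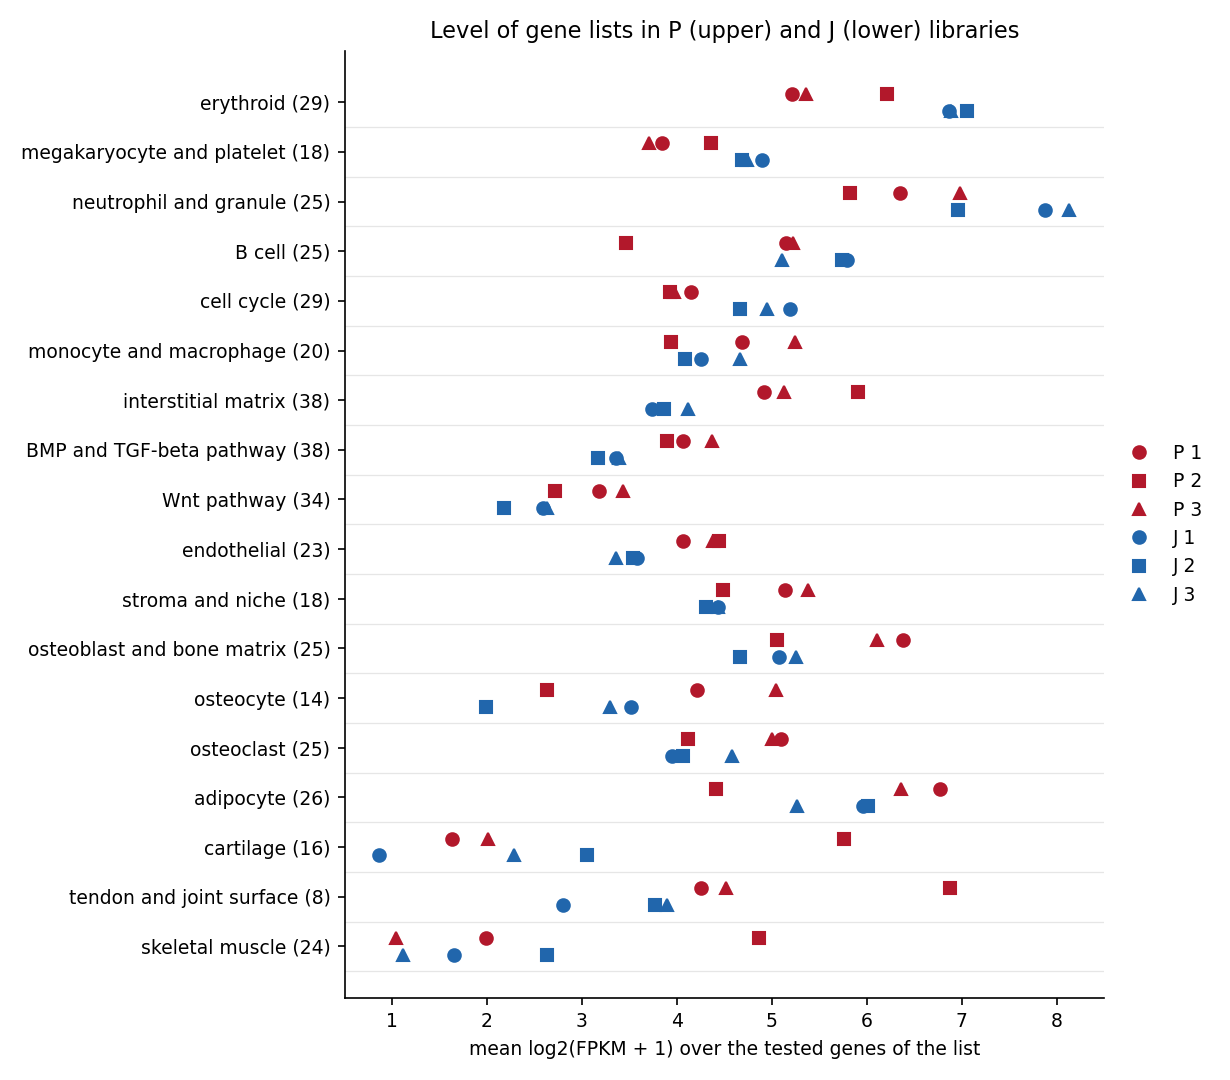
Each symbol is the mean log2(FPKM + 1) of 1 list in 1 library (x axis), with the P libraries in red above the J libraries in blue and the number of tested genes in brackets. Erythroid and platelet levels of all P libraries lie left of all J libraries and interstitial matrix levels lie right of them, while cartilage, tendon and skeletal muscle levels are led by P 2.

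Genes of dividing cells were lower in P, with a larger share of calls than any other of the 37 lists. All 29 tested members of the cell cycle list were negative (median −0.87). In 28 of them every P library lay below every J library (13.0% of all tested genes did). The test was passed by 13 (44.8%, against 3.15% called lower over all tested genes). The list's mean log2(FPKM + 1) was 4.15, 3.93 and 3.97 in P 1, P 2 and P 3, against 5.19, 4.67 and 4.95 in J 1, J 2 and J 3. P 2 did not stand apart here, and without it the median was −0.73 and 8 members passed, 7 of the 13 and Cdt1, a licensing factor of replication.

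The factors E2F, NF-Y and the DREAM complex are known to time such genes in the cell cycle, through E2F sites, CCAAT boxes and the cell cycle homology region (CHR). The 250 bases upstream of the start of 4 genes of this list are shown because every tested member had the same sign. They are the members of smallest p with an upstream window in RefSeq. Bases are written 5′ to 3′ on the strand of the gene, from the RefSeq GRCr8 assembly, and capitals mark matches on either strand to the letters TTTGGCGC or TTTCGCGC (E2F), TTTGAA (CHR) and CCAAT. The windows are chr10:103571896-103572145 (plus strand) for Birc5, chr1:199952594-199952843 (minus strand) for Mki67, chr10:103544778-103545027 (minus strand) for Tk1 and chr20:19265043-19265292 (plus strand) for Cdk1.
Birc5: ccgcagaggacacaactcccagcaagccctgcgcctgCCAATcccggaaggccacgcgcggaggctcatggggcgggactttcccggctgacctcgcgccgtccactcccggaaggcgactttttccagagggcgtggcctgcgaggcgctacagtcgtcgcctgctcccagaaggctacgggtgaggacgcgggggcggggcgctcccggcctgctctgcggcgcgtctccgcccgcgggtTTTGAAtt
Mki67: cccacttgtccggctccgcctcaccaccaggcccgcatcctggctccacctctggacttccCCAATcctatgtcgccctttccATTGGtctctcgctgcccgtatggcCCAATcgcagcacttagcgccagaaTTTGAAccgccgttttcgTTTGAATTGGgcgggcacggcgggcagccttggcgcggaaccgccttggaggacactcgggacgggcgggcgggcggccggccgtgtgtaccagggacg
Tk1: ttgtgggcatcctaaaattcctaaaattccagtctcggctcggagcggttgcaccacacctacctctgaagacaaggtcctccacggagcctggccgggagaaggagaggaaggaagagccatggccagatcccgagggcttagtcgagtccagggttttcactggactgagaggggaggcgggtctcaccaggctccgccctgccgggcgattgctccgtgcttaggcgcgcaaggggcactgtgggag
Cdk1: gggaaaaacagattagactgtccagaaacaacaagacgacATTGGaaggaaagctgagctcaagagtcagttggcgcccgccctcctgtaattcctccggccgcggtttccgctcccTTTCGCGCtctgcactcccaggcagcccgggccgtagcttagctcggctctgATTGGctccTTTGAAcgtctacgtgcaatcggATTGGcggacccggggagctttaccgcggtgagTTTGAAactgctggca

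The Cdk1 window holds all 3 motifs, Mki67 and Birc5 hold CHR and CCAAT matches, and the Tk1 window holds none of these letters. In Mki67 the last CHR match and the last CCAAT match overlap by 1 base. Windows were found for 21 of the 29 tested members, and E2F letters stood in 6 of them (28.6%, against 0.636% of all 33469 RefSeq windows of that length). CHR letters stood in 7 (33.3%, against 16.2%), and CCAAT in 14 (66.7%, against 34%). Among the 8 windows of the 13 called members the counts were 2, 5 and 5. List genes had 1 window each, while all RefSeq windows were taken as they stood and not limited to tested genes. Among 25 windows of tested genes of the interstitial matrix list below, the counts were 0, 3 (12%) and 6 (24%). These matches describe the letters of the windows and are no measure of binding.

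Birc5, survivin, which acts in chromosome segregation, had 11.1, 9.96 and 8.66 FPKM in P, against 28.5, 20.1 and 24.9 FPKM in J, a log2 fold change of −1.22 ± 0.23 (limma, adjusted p = 0.0363). Mki67, the proliferation antigen Ki-67, had 34.2, 36.1 and 27.6 FPKM in P, against 75.0, 70.5 and 70.8 FPKM in J (−1.13 ± 0.25, limma, adjusted p = 0.0363). The 3 J libraries agreed closely for Mki67, and each P library was at about the same distance below them. Ccna2, cyclin A2 of the S and G2 phases, had −1.07, and Rrm2, the subunit of ribonucleotide reductase made in S phase, had −1.15. The other called members, named here after their values were seen, were Ccnb2, Cdk1, Aurka, Aurkb, Plk1, Tpx2, Mcm2, Tk1 and Cdc6, with log2 fold changes from −1.27 for Aurka to −0.71 for Mcm2. Ccnd1, cyclin D1, which drives entry into the cycle, stands on the list of estrogen-responsive genes and was higher in P (0.87 ± 0.22, limma, adjusted p = 0.0411). It had 15.2, 19.9 and 16.99 FPKM in P, against 8.44, 7.25 and 11.7 FPKM in J.

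Collagen and matrix genes were higher in P. All 38 tested members of the interstitial matrix list were positive (median 1.32). In 23 of them every P library lay above every J library (16.5% of all tested genes did). The test was passed by 6 (15.8%, against 4.47% called higher over all tested genes). The mean log2(FPKM + 1) of the list was 4.91, 5.91 and 5.13 in P 1, P 2 and P 3, against 3.74, 3.87 and 4.12 in J 1, J 2 and J 3. P 2 was the highest, and without it the median was 1.16 and 3 members passed, Bgn, Col6a2 and, only in that fit, Fbn1, fibrillin 1.

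Col6a1, a chain of the beaded collagen VI around cells, had 66.7, 133 and 78.1 FPKM in P, against 35.0, 30.8 and 26.8 FPKM in J, a log2 fold change of 1.5 ± 0.36 (limma, adjusted p = 0.0371; named after its value was seen). Its partner chain Col6a2 had 1.21 ± 0.25 (limma, adjusted p = 0.0363). Bgn, biglycan, a proteoglycan of bone and other matrix, had 216, 181 and 225 FPKM in P, against 96.3, 81.2 and 85.9 FPKM in J (1.23 ± 0.28, limma, adjusted p = 0.0363). For Bgn all 3 P libraries were level, at more than the highest J library. Timp1 (1.5) and Timp2 (1.39), inhibitors of matrix metalloproteinases, and Col15a1 (1.91), a collagen of basement membrane zones, were the other calls.

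Dcn, decorin, a small proteoglycan on collagen fibrils, had 225, 3996 and 219.5 FPKM in P, against 71.7, 142 and 89.6 FPKM in J (2.57 ± 1.11, limma, adjusted p = 0.149). P 2 was far above the other 5 libraries, and P 1 and P 3 also lay above every J library. Sparc, osteonectin, a collagen-binding protein of bone matrix from the osteoblast list, had 1860.5, 727 and 1106 FPKM in P, against 609, 596 and 421 FPKM in J (1.09 ± 0.40, limma, adjusted p = 0.0994).

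Among the 15 highest log2 fold changes of called genes without overlap, Pdgfra, the PDGF receptor that marks mesenchymal cells, had 20.8, 36.7 and 22.7 FPKM in P, against 7.01, 6.39 and 6.94 FPKM in J, with a log2 fold change of 1.79 ± 0.39 (limma, adjusted p = 0.0363). Plod2, the lysyl hydroxylase that prepares collagen for crosslinking, had 65.6, 105 and 102 FPKM in P, against 18.8, 16.6 and 29.6 FPKM in J (2.03 ± 0.46, limma, adjusted p = 0.0363). The P libraries lay above all J libraries for both genes. Uncalled genes such as Dcn had higher fold changes than Pdgfra. P4ha1, which hydroxylates proline in collagen and was named from its list, had 1.29. Htra3, a secreted serine protease (1.84), Fndc1, a fibronectin-domain protein (1.69), Colec12, a scavenger collectin (1.78), and Cst3, cystatin C, an inhibitor of cathepsins (1.70), were higher too.

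The highest fold change of a called gene was that of Myoc, myocilin, a secreted glycoprotein found in the eye and in peripheral nerve and muscle. It had 44.1, 98.0 and 64.1 FPKM in P, against 1.20, 7.17 and 13.1 FPKM in J (3.39 ± 0.95, limma, adjusted p = 0.0492). The J libraries spread over a wide range, and every P library was above them. Zbtb16, the transcription factor PLZF, had 19.2, 14.6 and 26.3 FPKM in P, against 1.24, 7.85 and 3.60 FPKM in J (2.19 ± 0.51, limma, adjusted p = 0.0366). Dio2, which activates thyroid hormone within cells (2.03), Cd109, a surface protein that binds TGF-beta (2.33), Ackr4, a scavenger receptor for chemokines (1.94), and LOC120099525 (1.93) were also among the 15 highest.

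**Figure D3:**
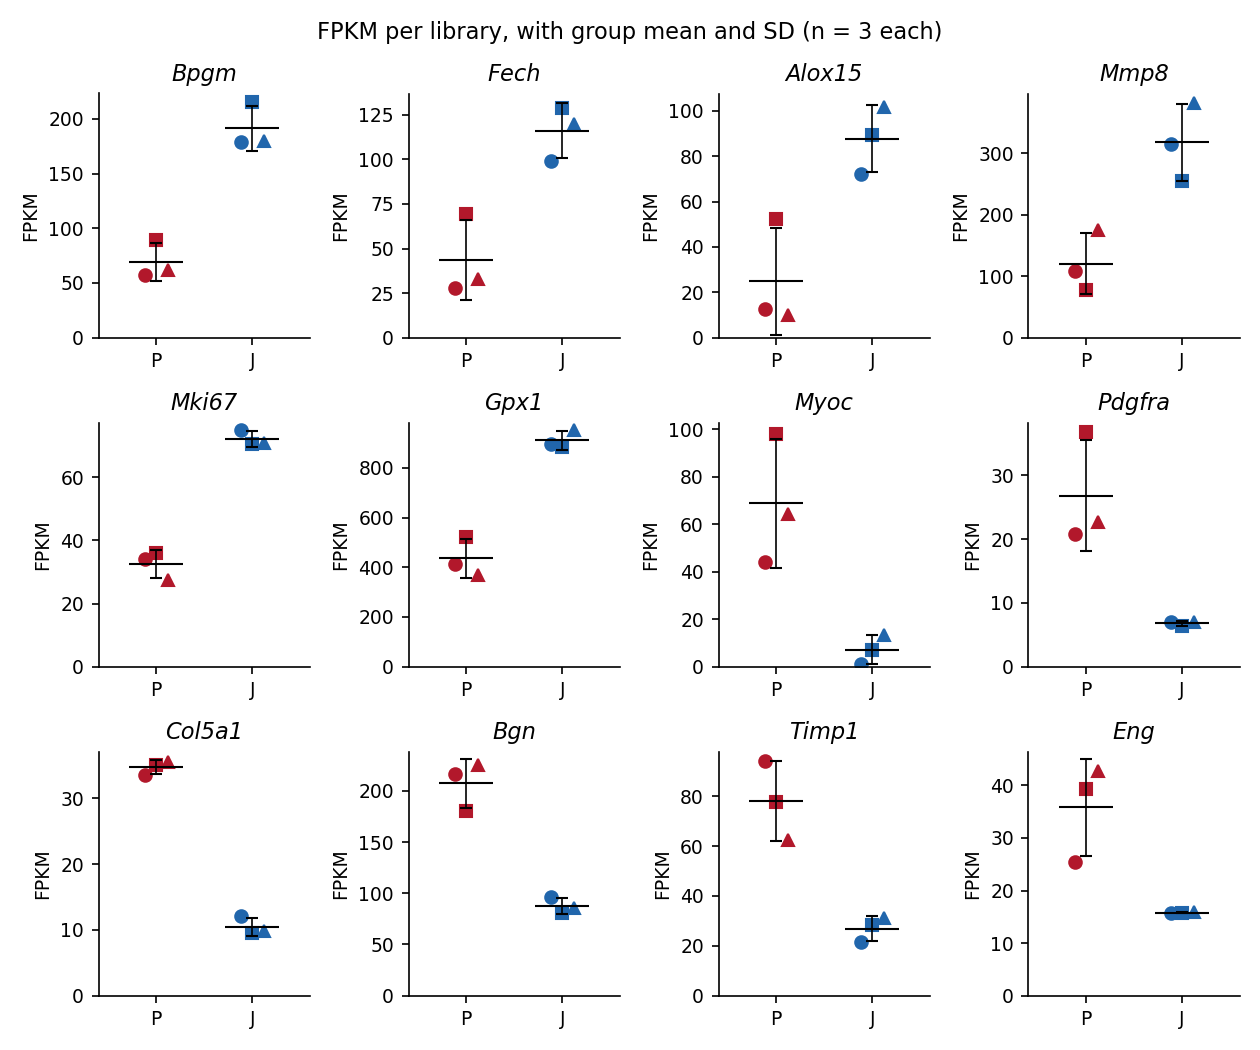
FPKM of 12 genes in the 3 P libraries (left, red) and the 3 J libraries (right, blue); symbols stand for replicate 1 (circle), 2 (square) and 3 (triangle), the line is the group mean and the bar its SD (n = 3 each). The first 6 genes are lower and the last 6 higher in every P library than in any J library, and P 2 is the P library nearest to J for Bpgm, Fech and Alox15.

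Parts of the BMP and TGF-beta pathway, in which secreted ligands act through serine kinase receptors to drive bone and matrix formation, were higher in P. Of 38 tested members 37 were positive (median 0.74). In 18 all P libraries lay above all J libraries (16.5% of all tested genes did), and 6 passed (15.8%, against 4.47% called higher). Of the ligands, Bmp5 had 9.56, 16.6 and 12.9 FPKM in P, against 4.91, 4.89 and 4.85 FPKM in J (1.22 ± 0.31, limma, adjusted p = 0.0418), and Bmp6 had 1.14 ± 0.27 (limma, adjusted p = 0.0369). Of the receptors, Tgfbr3, betaglycan, which presents TGF-beta, had 41.1, 35.1 and 100.2 FPKM in P, against 16.0, 16.6 and 14.3 FPKM in J (1.69 ± 0.41, limma, adjusted p = 0.0383). Bmpr1a, a type I BMP receptor, had 1.38, and Bambi, a decoy receptor that dampens the signal, had 1.40, both named after their values were seen. Ltbp3, which holds latent TGF-beta in the matrix, had 1.29. Ligands, receptors and an inhibitor thus moved in the same direction. Without P 2 the median was 0.96 and 5 members passed, Bmp6, Tgfbr3 and 3 not called with it, the inhibitors Fst (1.33) and Nog (1.10) and the signal carrier Smad5 (0.72).

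In the Wnt pathway, which favours osteoblast formation, 30 of 34 tested members were positive (median 0.59). In 14 all P libraries lay above all J libraries (16.5% of all tested genes did), and 5 passed (14.7%, against 4.47% called higher). The calls were the receptors Fzd8 (1.61), Fzd7 (0.86) and Fzd2 (0.82), Lgr4 (1.25), a receptor of the R-spondins that amplify Wnt signals, and Axin2 (0.51), a feedback target and inhibitor, which was named after its value was seen. Fzd7 had 3.33, 4.28 and 4.72 FPKM in P, against 1.45, 1.98 and 1.98 FPKM in J. For Fzd8 P 2 was highest, with 5.90, 21.9 and 6.24 FPKM in P, against 2.12, 2.19 and 3.04 FPKM in J. Secreted Wnt inhibitors on the list, such as Sost (1.66), Wif1 (1.60), Dkk1 (1.34) and Sfrp1 (0.07), were positive too and did not pass. Lef1, a transcription factor of the pathway, was negative (−0.83) and did not pass, nor did the negative inhibitors Nkd2 (−0.23) and Rnf43 (−0.14). Apart from Sost, these genes were named after their values were seen. The called receptors and the called inhibitor Axin2 were higher in P, while the uncalled inhibitors set no common direction. Leaving out P 2 gave a median of 0.79 and 1 call, Fzd7.

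Most vessel genes had positive fold changes. Of 23 tested endothelial genes 22 were positive (median 0.85), 16 had every P library above every J library (16.5% of all tested genes did), and 2 passed (8.7%, against 4.47% called higher over all tested genes). Eng, endoglin, a TGF-beta co-receptor of endothelium and stroma, had 25.4, 39.3 and 42.7 FPKM in P, against 15.7, 15.8 and 15.9 FPKM in J (1.10 ± 0.22, limma, adjusted p = 0.0363). Ecscr, an endothelial surface protein, had 1.15 ± 0.28 (limma, adjusted p = 0.0389). Eng and Pdgfra were the 2 calls of the stroma and niche list (18 tested, median 0.64), 11.1% of it. Without P 2 Eng kept its call, while Ecscr (adjusted p = 0.0711, limma) and Pdgfra (adjusted p = 0.0526, limma) lost theirs, and Kitlg, the stem cell factor of the niche, was called (1.09). Pmp22, a myelin protein also made by fibroblasts, passed on the nerve and Schwann cell list with 1.36 ± 0.37 (limma, adjusted p = 0.0473), and 4 of the 8 tested members of that list were negative. Its call, 12.5% of that list against 4.47% called higher over all tested genes, was lost without P 2 (limma, adjusted p = 0.0857).

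Genes of bone-forming cells had higher levels in P 1 and P 3 than in J, and P 2 lay within the J range. The mean log2(FPKM + 1) of the osteoblast list was 6.38, 5.06 and 6.10 in P 1, P 2 and P 3, against 5.08, 4.66 and 5.25 in J 1, J 2 and J 3. Of 25 tested members of the osteoblast and bone matrix list 22 were positive (median 0.82). The test was passed by 2 (8.0%, against 4.47% called higher over all tested genes). Col5a1, a collagen V chain that nucleates collagen fibrils, had 33.5, 35.1 and 35.6 FPKM in P, against 12.1, 9.52 and 9.85 FPKM in J (1.64 ± 0.33, limma, adjusted p = 0.0363). Dlx3, a homeobox factor of osteoblast differentiation, had 5.41, 9.12 and 8.89 FPKM in P, against 1.60, 1.41 and 2.24 FPKM in J (1.66 ± 0.44, limma, adjusted p = 0.0448). For both genes every P library lay well above J, and the P libraries were close together for Col5a1 alone.

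The late osteoblast genes were among the most variable. Bglap, osteocalcin, had 3620.5, 69.6 and 1047 FPKM in P, against 807, 574 and 834 FPKM in J (log2 fold change −0.18 ± 1.65, limma, adjusted p = 0.958). Col1a1, the main collagen of bone, had 1763, 98.6 and 944 FPKM in P, against 572, 530.5 and 261 FPKM in J (0.35 ± 1.00, limma, adjusted p = 0.848). In both, P 1 and P 3 were the highest of the 6 libraries and P 2 the lowest. Without P 2 the log2 fold change of Bglap was 1.42, and without P 1 that of Col1a1 was −0.49. Without P 2 the list's median was 1.35, and 1 member, Col5a1, passed.

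The osteocyte list, of cells embedded in bone, had 14 positive members of 14 (median 1.13) and no call. Dmp1, a phosphoprotein of mineralisation, had 224, 23.9 and 395 FPKM in P, against 80.5, 7.66 and 69.7 FPKM in J (1.82 ± 1.39, limma, adjusted p = 0.417). Sost, sclerostin, the Wnt inhibitor secreted by osteocytes, had 31.3, 1.66 and 317 FPKM in P, against 32.5, 0.722 and 14.0 FPKM in J (1.66 ± 2.26, limma, adjusted p = 0.666). P 2 and J 2 were both low, and the spread within each group was wider than the difference between them.

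Of 25 tested osteoclast genes 22 were positive (median 0.50, and 0.77 without P 2) and 1 passed (4.0%, near the 4.47% called higher over all tested genes). Mitf, a transcription factor of osteoclast genes that also acts in other lineages, had 5.09, 9.20 and 5.74 FPKM in P, against 2.20, 2.92 and 2.53 FPKM in J (1.08 ± 0.22, limma, adjusted p = 0.0363). Nfatc1, the factor that commits precursors to osteoclasts, had 16.5, 13.9 and 19.3 FPKM in P, against 9.55, 10.9 and 9.69 FPKM in J (0.66 ± 0.19, limma, adjusted p = 0.054). The groups did not overlap for either gene. Without P 2 Mitf stayed called and Mmp14, a membrane collagenase, was called beside it (1.91). Ctsk, cathepsin K, which digests bone collagen, had 1669, 322 and 1166 FPKM in P, against 225, 426 and 699 FPKM in J (1.07 ± 1.06, limma, adjusted p = 0.542), again with P 2 apart from P 1 and P 3.

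Among regulators of osteoclasts (14 tested, median 0.19) there was no call. Tnfrsf11a, the receptor RANK, had 9.91, 6.04 and 10.3 FPKM in P, against 1.63, 2.7 and 6.01 FPKM in J (1.22 ± 0.43, limma, adjusted p = 0.0877). Its ligand Tnfsf11, RANKL, had 9.61, 2.37 and 8.31 FPKM in P, against 6.14, 3.56 and 3.89 FPKM in J (0.35 ± 0.62, limma, adjusted p = 0.744). The decoy receptor Tnfrsf11b, osteoprotegerin, had 11.5, 114 and 12.8 FPKM in P, against 3.86, 5.59 and 8.69 FPKM in J (2.00 ± 1.10, limma, adjusted p = 0.25). All P libraries lay above all J libraries for the receptor and the decoy, narrowly for the receptor, and the ligand overlapped.

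Cartilage, tendon, muscle and fat set P 2 apart from its group. The mean log2(FPKM + 1) of the cartilage list was 1.63, 5.76 and 2.01 in P 1, P 2 and P 3, against 0.868, 3.05 and 2.29 in J 1, J 2 and J 3. That of the tendon and joint surface list was 4.26, 6.88 and 4.52 in P, against 2.80, 3.77 and 3.89 in J. For skeletal muscle the levels were 1.99, 4.87 and 1.04 in P, against 1.66, 2.63 and 1.12 in J. In each of these lists P 2 was the highest of the 6 libraries, and in cartilage and muscle P 3 lay within the J range or below it.

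Acan, aggrecan, the main cartilage proteoglycan, had 0.866, 141 and 1.60 FPKM in P, against 0.136, 14.2 and 5.57 FPKM in J (0.87 ± 1.68, limma, adjusted p = 0.769). Acta1, skeletal muscle actin, had 18.9, 695 and 0.968 FPKM in P, against 10.2, 61.6 and 0.114 FPKM in J (1.71 ± 2.02, limma, adjusted p = 0.615). Without P 2 the 2 log2 fold changes were −1.14 and −0.56, the opposite sign. No gene of the 3 lists passed. The medians of 0.87 for cartilage and 0.94 for muscle became 0.06 and −0.31 without P 2, and that of tendon went to 0.57, against 1.71 with it. J 2 was the highest J library for both Acan and Acta1. Cilp, Comp, Fmod, Prg4 and Thbs4 were members of both the tendon and the interstitial matrix lists. What part cartilage, tendon and muscle had in the matrix genes above was not tested.

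Adipocyte genes ran opposite to muscle in P 2. Their list level was 6.77, 4.41 and 6.36 in P 1, P 2 and P 3, against 5.97, 6.01 and 5.27 in J 1, J 2 and J 3, with no call among 26 genes (median 0.03, and 0.79 without P 2). Adipoq, adiponectin, had 1729.7, 162 and 1223 FPKM in P, against 454, 753 and 337 FPKM in J (0.53 ± 1.07, limma, adjusted p = 0.781, and −0.13 without P 1). P 1 and P 3 were the highest libraries and P 2 the lowest.

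Lists of genes tied to the known actions of the Psoralea compounds had few tested members, so their counts of calls say little. Of the estrogen receptors and responsive genes 16 were tested, and 14 were positive (median 0.32). Ccnd1, given above, was the only call (6.25%, near the 4.47% called higher over all tested genes). Without P 2 Ccnd1 lost its call (adjusted p = 0.071, limma) and Pdzk1, a scaffold protein, was called in its place (0.55). Esr1, estrogen receptor alpha, had 1.32, 0.727 and 2.04 FPKM in P, against 0.951, 0.312 and 0.325 FPKM in J. Its mean over the 6 libraries was below 1, so it was not tested, and P 2 lay under J 1.

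The aryl hydrocarbon receptor senses flavonoids and other planar molecules and switches on enzymes that clear them. None of the 10 tested genes of that list passed (7.62% of all tested genes did), and 9 were positive (median 0.49). Cyp1b1, one of its target enzymes, had 18.6, 11.1 and 19.7 FPKM in P, against 6.14, 7.00 and 11.6 FPKM in J (0.92 ± 0.34, limma, adjusted p = 0.0968). Tiparp, another target, had 15.6, 11.1 and 19.4 FPKM in P, against 7.77, 10.1 and 7.70 FPKM in J (0.76 ± 0.26, limma, adjusted p = 0.0819). Cyp1a1, the classical target, was low, with 0.0197, 3.81 and 0.0147 FPKM in P, against 0.0422, 0 and 1.85 FPKM in J, and was not tested.

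The NRF2 and antioxidant list had 3 calls among 27 tested, all lower in P (11.1%, against 3.15% called lower over all tested genes). Its median was −0.01, with 13 members positive and 14 negative. The NRF2 targets Nqo1 (0.09, limma, adjusted p = 0.807) and Hmox1 (−0.75, limma, adjusted p = 0.326) did not pass, and their groups overlapped. Mt2A, a metallothionein, had every P library above every J library and did not pass (1.32, limma, adjusted p = 0.059). Gpx1, glutathione peroxidase 1, which is abundant in red cells, had 413, 524 and 369 FPKM in P, against 896, 883 and 952 FPKM in J (−1.08 ± 0.21, limma, adjusted p = 0.0363). Gclm, a subunit of the enzyme that starts glutathione synthesis, had 21.0, 29.2 and 23.5 FPKM in P, against 42.4, 55.0 and 42.9 FPKM in J (−0.90 ± 0.17, limma, adjusted p = 0.0363). Osgin1, an oxidative stress-induced growth inhibitor, had −0.81 and lost its call without P 2 (limma, adjusted p = 0.0555). The red cell genes described above were lower in the same libraries, and their part in this was not tested.

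Of 27 tested apoptosis genes 2 were lower in P, the survival gene Bcl2l1 (Bcl-xL, −0.86), which erythroid cells use strongly, and the death gene Pmaip1 (Noxa, −0.71). The death receptor gene Tnfrsf10b was higher (0.88). Together 11.1% of the list was called, near the 7.62% over all tested genes. Bcl2l1 had 9.19, 11.5 and 10.3 FPKM in P, against 19.3, 19.4 and 19.9 FPKM in J (SE of its log2 fold change 0.15, limma, adjusted p = 0.0363). The called members had opposite roles and moved in both directions, too few to describe the list, and 24 did not pass. Without P 2 Pmaip1 lost its call (limma, adjusted p = 0.0949) and Gadd45a, a stress-induced growth arrest gene, was lower (−1.08).

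The interferon list was likewise mixed. Ifit1, an antiviral protein induced by type I interferon, had 2.98, 8.27 and 4.61 FPKM in P, against 15.0, 26.7 and 20.9 FPKM in J (−1.85 ± 0.52, limma, adjusted p = 0.0498). Ifi27 (0.81) and Gbp2 (0.80), other interferon-induced genes, were higher in P, and 20 of 23 tested members did not pass. The calls were 13.0% of the list, against 7.62% over all tested genes. Cxcl16 (1.08), a chemokine of macrophages and stroma, was the only call of 23 chemokine and NF-kB genes (4.35%, near the 4.47% called higher). These 4 calls were also made without P 2. Of the lysosome and autophagy list Gabarapl1 (0.95), an adaptor of autophagosomes, Npc1 (0.80), the lysosomal cholesterol exporter, and Ctsl (1.49), cathepsin L, were higher among 25 tested (12.0%, against 4.47% over all tested genes), and without P 2 none of the 3 passed (limma, adjusted p = 0.0519, 0.0544 and 0.0794). Adm (1.15), the vasodilator adrenomedullin, and P4ha1 were the calls of the glycolysis and hypoxia list of 23, both higher. They made up 8.7% of it, against 4.47% called higher over all tested genes. Without P 2 both were lost (limma, adjusted p = 0.0543 and 0.0975), and the list had 0 higher calls and 2 lower, the glycolytic enzymes Pkm (−1.0) and Ldha (−0.67). There was no call among genes of cholesterol synthesis (27 tested), oxidative phosphorylation (26), the mitochondrial genome (13), immediate early genes (27) or smooth muscle (10). Lyl1, a transcription factor of blood progenitors (−1.17), was the only call of 16 stem and progenitor genes, and not without P 2 (limma, adjusted p = 0.0589). It was 6.25% of that list, against 3.15% called lower over all tested genes.

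Several microRNA genes were counted in these libraries. Polyadenylated RNA holds the longer transcripts over such genes and not the mature microRNA, so the values below are of host or primary transcripts. Of 55 microRNA genes tested 5 passed (9.09%, against 7.62% of all tested genes), 4 higher in P and 1 lower, a share near the background. The mature sequences RefSeq gives for the 5 genes are shown to let their seeds be compared, which differ in all 7. The sequence of let-7c-5p is listed for Mirlet7c1 as well as for Mirlet7c2, and let-7c-2-3p for Mirlet7c2 alone. They are from RefSeq GRCr8, 5′ to 3′, with the seed (bases 2 to 8) in capitals.
rno-let-7c-5p: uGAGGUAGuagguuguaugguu
rno-let-7c-2-3p: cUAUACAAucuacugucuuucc
rno-miR-568: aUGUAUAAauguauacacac
rno-miR-31b: cUAUGCCAgcaucuugccu
rno-miR-22-5p: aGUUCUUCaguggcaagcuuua
rno-miR-22-3p: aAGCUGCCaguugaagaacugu
rno-miR-290: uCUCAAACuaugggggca

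Mirlet7c2, a gene of the let-7 family, had 4.09, 23.7 and 3.45 FPKM in P, against 0.291, 0.761 and 0.219 FPKM in J. These rested on 15, 100 and 17 recovered reads in P, against 1, 3 and 1 reads in J. Its log2 fold change was 2.55 ± 0.57 (limma, adjusted p = 0.0363), and with so few reads in J the size of the ratio is loosely set and depends on the pseudocount. Mir22 had 17.2, 24.9 and 16.0 FPKM in P, against 6.70, 10.1 and 2.62 FPKM in J (1.56 ± 0.44, limma, adjusted p = 0.0492). Mir568 had 86.4, 80.6 and 67.8 FPKM in P, against 30.6, 18.6 and 24.9 FPKM in J (1.65 ± 0.40, limma, adjusted p = 0.0386). Mir3554, the gene of miR-31b, had 14, 5 and 10 reads in P, against 1, 0 and 4 reads in J, and Mir290, the lower one, had 4, 12 and 7 reads in P, against 18, 29 and 26 reads in J. Mir568 alone of the 5 had 74 reads or more in every library.

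Where P and J stood on the scale between OVX and Sham was seen from the other groups, which share no library with them. In the erythroid list the mean log2(FPKM + 1) of the group was 5.59 in P and 6.94 in J, with 8.01 in OVX and 2.91 in Sham. In the cell cycle list it was 4.02 in P and 4.94 in J, with 5.64 in OVX and 1.93 in Sham. In the interstitial matrix list it was 5.32 in P and 3.91 in J, with 2.53 in OVX and 6.21 in Sham. In all 3 lists both extract groups lay between OVX and Sham, with P on the Sham side of J. The PJ group stood at 4.35, 3.78 and 4.97 in the same lists. Lists of bone cells, fat and B cells did not follow this order. The P mean lay beyond the Sham mean in the osteoblast list (5.85 in P, 5.00 in J, 3.58 in OVX, 5.26 in Sham) and the osteocyte list (3.96, 2.93, 2.49 and 3.50). Both extract means lay above those of OVX and Sham in the osteoclast list (4.74, 4.20, 3.52 and 3.59) and the adipocyte list (5.85, 5.75, 4.47 and 5.05). The Sham libraries were split in the bone cell lists. Sham 1, Sham 2 and Sham 3 had 4.95, 4.62 and 6.23 in the osteoblast list and 2.81, 2.66 and 5.02 in the osteocyte list. In the osteoclast list they had 2.87, 2.87 and 5.04. Sham 3 thus lay above the P mean in each of these lists, and the place of P and J beside Sham there is loosely set. In the B cell list J lay beyond OVX (4.61, 5.54, 4.88 and 2.98). OVX and Sham also differed widely in cartilage genes (3.134, 2.07, 0.6562 and 6.346), and the tendon and joint surface list was highest in Sham too. P 2, the P library highest in both lists, correlated at 0.905, 0.878 and 0.873 with Sham 1, Sham 2 and Sham 3. Its correlations with P 1 and P 3 were lower (0.851 and 0.837). What part cartilage and tendon had in the place of P and J on this scale was not tested.

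Most called genes showed the order of the erythroid, cell cycle and matrix lists. Of the 641 genes higher in P, 559 (87.2%) had both the P and the J mean FPKM between the OVX and Sham means, as did 380 of the 451 lower ones (84.3%) and 47.6% of all tested genes. In 558 and 380 of them P was on the Sham side of J, as it was in 6150 of the 6832 such genes over all tested. That side was thus common among genes between OVX and Sham, called or not. Across the 14339 tested genes the log2 fold changes of P minus J and of OVX minus Sham had a Pearson correlation of −0.837, a description over genes, which are not independent, in a fit that shares 1 estimate of the spread. It was −0.689 without P 2. Of the 641 genes called higher in P, 628 (98%) were called lower in OVX than in Sham, as were 28.1% of all tested genes. Of the 451 genes called lower in P, 444 (98.4%) were called higher in OVX than in Sham, as were 25.5% of all. OVX and Sham differed in 53.6% of all tested genes. Seen from the longer lists, these were 15.6% of the 4028 genes lower in OVX and 12.1% of the 3656 genes higher in OVX. Only 2 genes were higher in both comparisons, LOC120095394 and Snrpd2l, and none was lower in both. Single genes could differ from this order in their group means. Bmp5 had group means of 13.0 FPKM in P and 4.88 FPKM in J, with 2.23 FPKM in OVX and 17.6 FPKM in Sham, so both extract groups lay between. Ackr4 had 19.6 FPKM in P and 4.42 FPKM in J, with 1.84 FPKM in OVX and 13.3 FPKM in Sham. Its P mean lay beyond the Sham mean, though Sham 3 (25.2 FPKM) was above every P library. Ifit1 had 5.29 FPKM in P and 20.9 FPKM in J, with 15.0 FPKM in OVX and 3.87 FPKM in Sham. Its J mean lay beyond the OVX mean, though OVX 2 (28.3 FPKM) was above every J library. Bglap had 1579 FPKM in P and 738 FPKM in J, with 83.5 FPKM in OVX and 307 FPKM in Sham. Both extract means lay above, but Sham 1, Sham 2 and Sham 3 had 34.0, 6.43 and 881 FPKM, and P 2 (69.6 FPKM) lay below OVX 1 (173 FPKM).

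**Figure D4:**
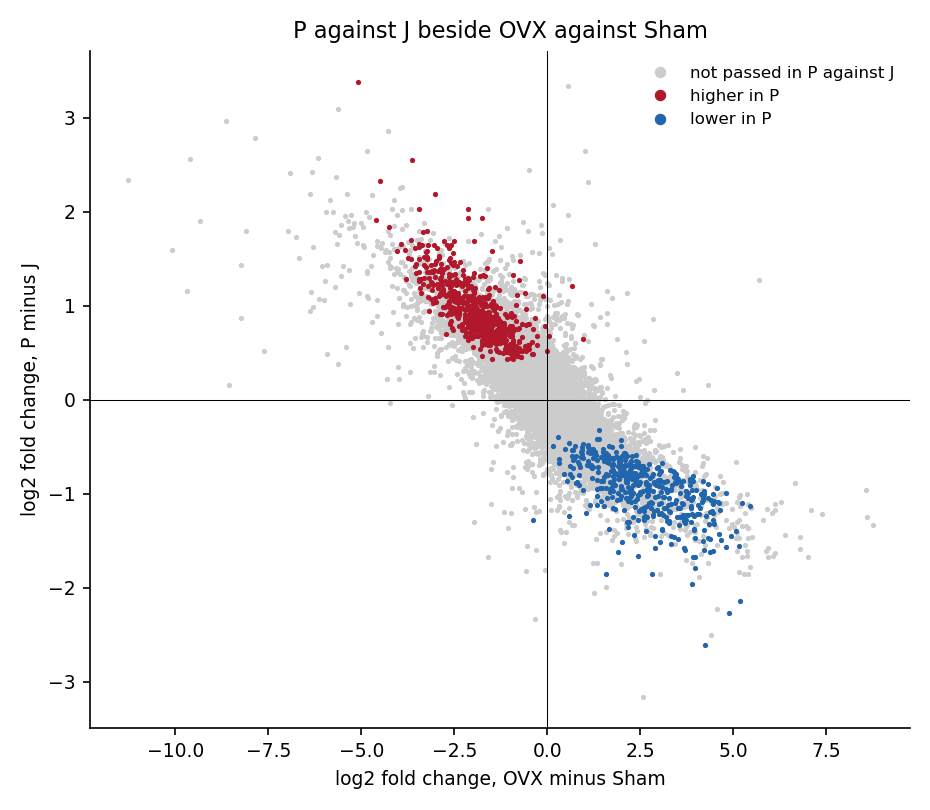
Each point is 1 tested gene, with the log2 fold change of OVX minus Sham on the x axis and that of P minus J on the y axis; red and blue points were called higher and lower in P. The cloud runs from upper left to lower right (Pearson r −0.837), and nearly all coloured points lie in those 2 corners.

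**Figure D5:**
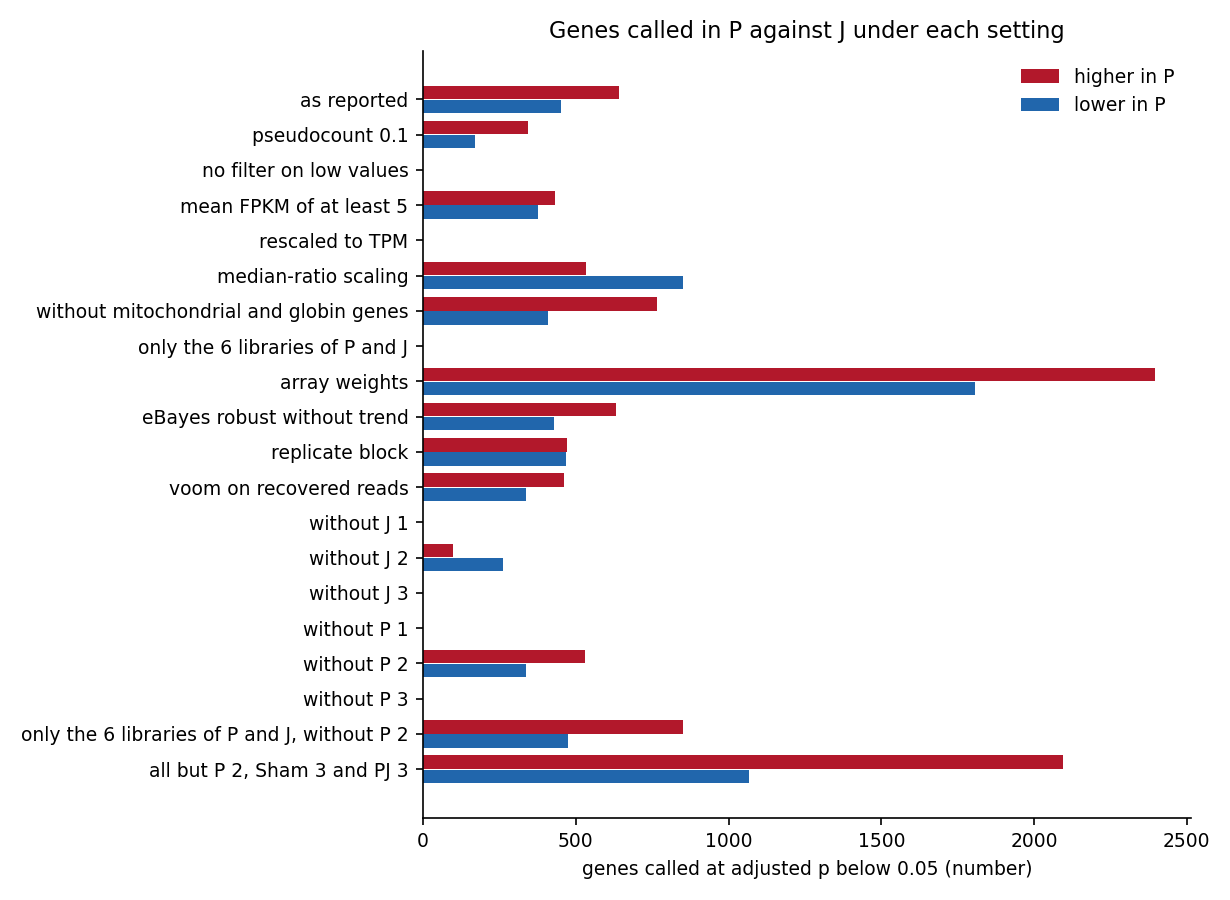
Number of genes called higher (red) and lower (blue) in P under each processing setting, from the fit as reported at the top to the added fits at the bottom. Leaving out P 1, P 3, J 1 or J 3, the fit to the 6 libraries alone, TPM rescaling and no filter on low values give no bar, and array weights give the longest, with 2395 and 1807.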

How the data were processed

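Polyadenylated RNA of rat femurs had been sequenced, and per the labels' protocols RNA was taken with TRIzol and libraries made with a TruSeq RNA kit. The build mRatBN7.2 and the tools featureCounts 2.0.6, STAR 2.7.11a and fastp 0.23.4 are named per the submitters' processing notes, with no order or settings. Library strandedness is not given in the sources, so a gene and an antisense partner cannot be told apart. The deposited values are FPKM by the authors, held in a column headed count, while the column headed FPKM was empty in all 15 files.

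Groups came from the sample titles. Genes averaging 1 FPKM or more over the 6 P and J libraries were tested on log2(FPKM + 1), a scale that understates changes of low genes, with limma 3.58.1 (R 4.3.3): 1 mean per group over 15 libraries (10 residual degrees of freedom), eBayes with trend, contrast P minus J, two-sided, Benjamini-Hochberg adjustment, threshold 0.05. The step was run on simulated data with known changes, drawn with less spread than within the real groups. That run does not show how the fit performs at the spread of these libraries. An exact permutation test of 3 against 3 libraries cannot go below 0.1, so single lists got no p. Named genes were the 15 highest and 15 lowest called genes with a symbol and no overlap, up to 4 members of smallest p per list, and a fixed set. The members of the 37 lists (766 tested genes) and the rule for the groups were chosen with earlier results of these data known.

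Whole reads were recovered from the steps of the FPKM values for 24168 of 24207 genes above 0, with a tolerance of 0.05 of a read. This gave totals of 36.1 to 51.9 (units of 1000000 reads) in the P and J libraries. Since 64.2% of recovered values from 1 to 20 were even, a fragment may have been counted as both of its ends. Reads served for limma-voom (library totals as sizes) and for the microRNA genes. The alternatives were another pseudocount, other filters and scalings, other fits and libraries left out. Sequences came from RefSeq tables of GRCr8, which differs from the build of the files, so no other coordinates are given. Some results are not reported here.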

Additional observations from a re-analysis of the deposited data

How the results depend on the processing

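In the fit as reported 641 genes were higher and 451 lower in P. A pseudocount of 0.1 gave 344 and 170, array weights 2395 and 1807, and median-ratio scaling 532 and 852. No filter on low values, TPM rescaling and the 6 libraries alone gave 0 in each direction with limma, at smallest adjusted p-values of 0.0547, 0.0504 and 0.0557 and with 4901, 3874 and 3348 genes at an unadjusted p below 0.05. A filter at a mean of 5 FPKM, robust shrinkage, limma-voom on recovered reads and removal of mitochondrial and globin genes kept both counts within 1.5 times. Leaving out 1 of the 6 libraries gave 0 to 531 higher and 0 to 336 lower, highest without P 2. Of 2 fits chosen after seeing the data, that without P 2, Sham 3 and PJ 3 gave 2094 and 1066, and that of the 6 libraries without P 2 gave 852 and 476. Same-numbered P and J libraries had deviations that correlated at 0.185, −0.146 and −0.284, so the numbers did not pair them, and the fit with a replicate block gave 471 and 467. The cause of these differences was not tested. None of the 1092 called genes changed sign under the other pseudocount, filters, scalings or weights, where tested. Genes called in opposite directions in P against J and OVX against Sham were 1072, and 822 without P 2 or 1356 under median-ratio scaling. Of the named genes, signs turned when 1 of the 6 libraries was left out for Bglap (range −1.42 to 1.42, and 1.24 with array weights), Acan (−1.14 to 1.99), Acta1 (−0.56 to 3.68), Col1a1 (−0.49 to 1.58), Sost (−0.038 to 3.41), Mrc1 (−0.025 to 1.13) and Adipoq (−0.13 to 1.58). The 2 added fits without P 2 gave 1.42 for Bglap, −1.14 for Acan and −0.56 for Acta1. The sign of every list median quoted with a direction was the same under the other pseudocount, TPM, median-ratio, mitochondria-free and voom settings, while the adipocyte and NRF2 medians near 0 changed sign under median-ratio or TPM scaling. Depth is only inferred from FPKM steps and limits the microRNA genes most.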
